A study of Mus musculus with 3 samples.

Results

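The Lin28, Trim71 and Igf2bp proteins bind RNA in early embryonic cells, and with L1td1, Hmga1 and Hmga2 they make up a group of 9 genes that are active in stem cells and fetal tissue and mostly silent in adults. The 9 genes were Lin28a, Lin28b, Trim71, L1td1, Igf2bp1, Igf2bp2, Igf2bp3, Hmga1 and Hmga2. Members were taken by gene name from the array annotation, where 15 of 39429 non-control probes, and 9 of 30458 gene symbols, were theirs. Their transcripts were measured in embryoid bodies, balls of stem cells in suspension culture that begin to form embryonic tissues once LIF, which holds them undifferentiated, is withdrawn. These were collected after 10 days. The Dido3ΔCT samples carry a C-terminally truncated form of Dido3, the longest protein of the Dido1 locus, and the wild type samples were grown alongside them as controls. Of each genotype 3 biological replicates were hybridised, 1 mutant and 1 wild type sample per two-colour array. The dyes were not swapped equally, since the mutant RNA was in Cy3 on arrays 1 and 3 but in Cy5 on array 2. How many lines or clones stand behind each genotype is not given in the labels, so the p-values may cover only culture and array spread, and if each genotype was 1 line, effects of genotype and of line cannot be told apart. On every array the Y chromosome genes Eif2s3y and Ddx3y were lower in the Dido3ΔCT sample (values are given with the processing). That difference runs with genotype in all 3 pairs, so the 2 cannot be told apart here.

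Lin28a and Lin28b block the maturation of the let-7 microRNAs, which in turn silence messenger RNAs with a matching site. Lin28b, Trim71, Hmga2 and the Igf2bp genes are themselves known let-7 targets, so Lin28 and let-7 form a switch between embryonic and later programmes. Trim71 is a ubiquitin ligase and mRNA repressor, the Igf2bp proteins stabilise and localise messenger RNAs such as that of Igf2, and L1td1, derived from a LINE-1 retrotransposon protein, associates with Lin28 in stem cells. Hmga1 and Hmga2 are not RNA-binding proteins in the strict sense. They are small chromatin proteins that bind AT-rich DNA, and are grouped here because Hmga2 is the best known let-7 target. RNA of let-7 itself was not analysed here.

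The let-7 sequences are shown because the seed, bases 2 to 8 in capitals, defines the sites by which let-7 finds its targets. In the RefSeq table for GRCm38.p6, 10 mature family members had the seed GAGGUAG and 1, let-7j, had GAGGUAU. Those printed are 5 of the 10 and let-7j.
mmu-let-7a-5p: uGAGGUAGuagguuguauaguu
mmu-let-7d-5p: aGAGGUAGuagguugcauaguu
mmu-let-7e-5p: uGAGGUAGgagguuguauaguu
mmu-let-7g-5p: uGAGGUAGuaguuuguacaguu
mmu-miR-98-5p: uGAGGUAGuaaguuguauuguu
mmu-let-7j: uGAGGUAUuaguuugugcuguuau

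The complement of the common seed on the transcript strand, CTACCTC, was present in 150 of the 39429 probes (0.38%) and in 1 of the 15 probes of these genes. That probe is the brighter of the Hmga2 probes, so it reads a stretch of transcript that holds a seed match. It lies on the minus strand of mm9 at chr10:119798739-119798798. The 28 bases around the match, at chr10:119798741-119798768, are printed with the match in capitals. A match is a description of the letters and not a test of binding.
Hmga2 seed match: atcaaaacacactaCTACCTCttaagtc

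All 9 genes had a probe well above background on all 3 arrays in both genotypes, so each could be tested for a difference in either direction. In all, 11 of the 15 probes passed the filter on dim probes, and the brightest probe stands for its gene. Sample levels are log2 normalised intensities, which are not comparable between probes, and ratios are log2 of Dido3ΔCT over wild type with the SE of a limma fit over 3 arrays. No gene of the group passed the test at an adjusted p of 0.05 over 15428 genes, where 0.305% of all genes did (0.214% higher and 0.0907% lower in Dido3ΔCT samples). At an unadjusted p under 0.05 there were 5 of 9, 2 higher and 3 lower in Dido3ΔCT samples, against 22.9% of all genes (11.6% and 11.3%). At an adjusted p under 0.1 the group held 1 gene higher in Dido3ΔCT samples, L1td1, and 3 lower, Hmga2, Igf2bp3 and Lin28b, against 4.26% and 3.86% of all genes, or 8.13% together. The 4 genes were also those past a 2-fold mean ratio, which 9.43% of genes exceeded upwards and 6.95% downwards. The median ratio was 0.31 over the 9 genes and 0.035 over all genes tested, but the 9 values ran from −2.51 to 2.29. The 9 genes thus did not share a direction, with 5 mean ratios above 0 and 4 below. In 8 of the 9 the ratio had 1 sign on all 3 arrays, 4 times above 0 and 4 times below, where 21.7% and 22.6% of all genes did so.

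**Figure D1:**
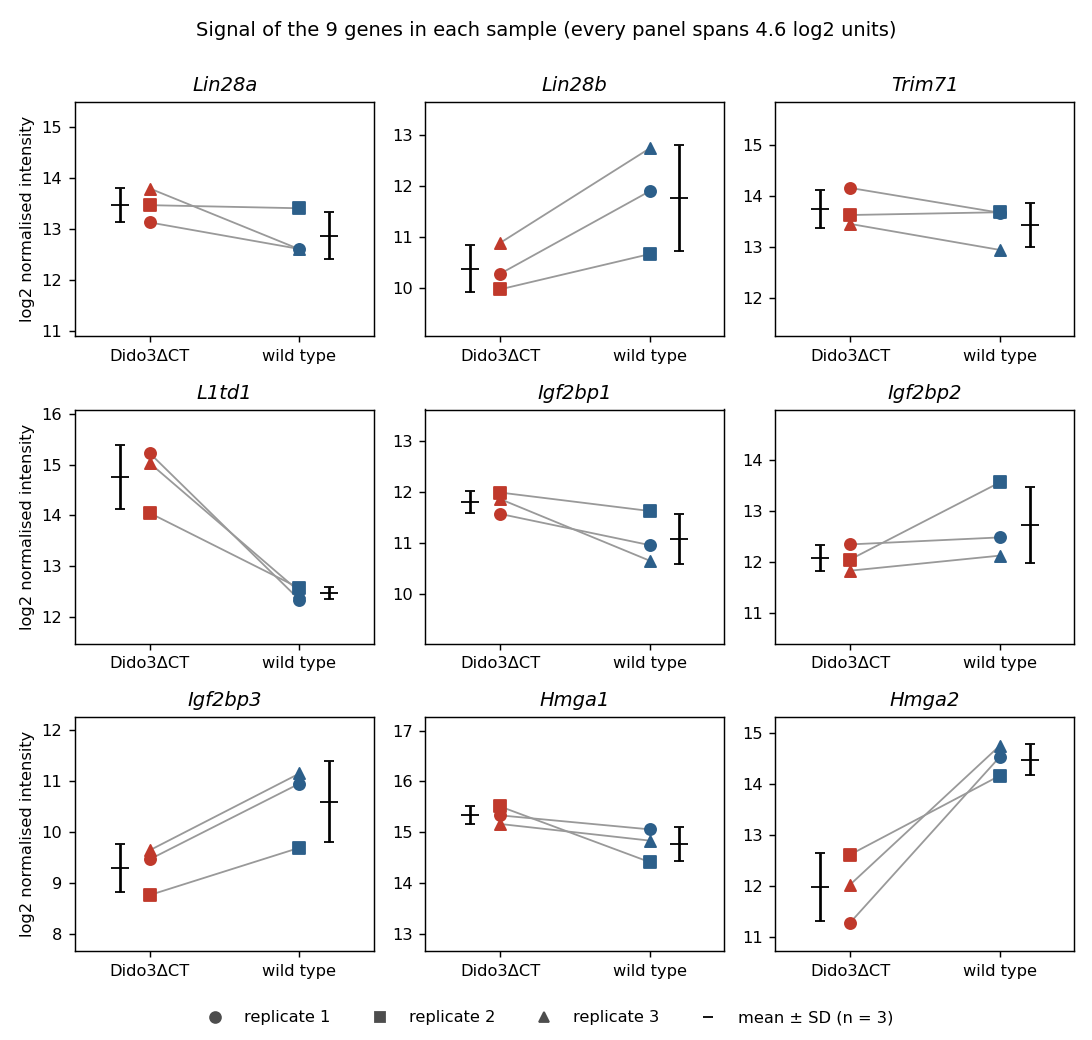
Log2 normalised intensity of the brightest probe of each gene in the 3 Dido3ΔCT samples (left, red) and the 3 wild type samples (right, blue), with a line joining the samples of 1 array and bars for the mean ± SD (n = 3). L1td1 lies higher and Hmga2 lower in every Dido3ΔCT sample than in any wild type sample, while Lin28a and Trim71 overlap.

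The Lin28 paralogues lay on opposite sides of 0. Lin28a, the form best known from undifferentiated stem cells, was read by 1 probe on chromosome 4 (mm9, 133559245 to 133559304, minus strand). Its level was 13.12, 13.46 and 13.79 in Dido3ΔCT samples on replicates 1, 2 and 3, against 12.60, 13.40 and 12.60 in wild type samples. The groups overlapped, because the wild type sample of replicate 2 lay above the mutant sample of replicate 1. The ratios were 0.52, 0.060 and 1.19, with a mean of 0.59 ± 0.31 (adjusted p = 0.328, limma), which is 1.51-fold and did not pass the test. The mean was 0.29 without replicate 3 and 0.86 without replicate 2.

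Lin28b, the form that persists in differentiating and fetal cells, had 10.28, 9.98 and 10.89 in Dido3ΔCT samples, against 11.90, 10.67 and 12.74 in wild type samples at its brighter probe (chromosome 10, 45096468 to 45096527, minus strand). Within each array the Dido3ΔCT sample was the lower one, though the lowest wild type sample, of replicate 2, fell below the highest mutant one. The ratios were −1.62, −0.69 and −1.86, and the mean was −1.39 ± 0.32 (adjusted p = 0.0957, limma), a mean 2.62-fold higher in wild type samples. A second Lin28b probe, 43944 bases upstream on the transcript strand (45140412 to 45140471), gave −0.54, −0.32 and −0.99. It pointed the same way on each array but was well above background on 1 of 3 mutant and 2 of 3 wild type arrays and was not tested. The Lin28a ratio exceeded the Lin28b ratio by 2.14, 0.75 and 3.05 on the 3 arrays, 1.98 ± 1.16 (SD, n = 3). The sign was the same each time. An exact two-sided sign-flip test over 3 arrays can give no p below 0.25, and no model of the difference was fitted.

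The 250 bases before the annotated starts of both Lin28 genes are shown because the paralogues had ratios of opposite sign. They are from RefSeq on GRCm38.p6, chr4:134018817-134019066 and chr10:45470202-45470451, both on the minus strand, with matches to 5 motifs in capitals. The motifs, searched on both strands, were the octamer ATGCAAAT, the E-box CACGTG, the CCAAT box, the TATA box TATAAA and the GC box GGGCGG. None of them overlap in these sequences.
Lin28a: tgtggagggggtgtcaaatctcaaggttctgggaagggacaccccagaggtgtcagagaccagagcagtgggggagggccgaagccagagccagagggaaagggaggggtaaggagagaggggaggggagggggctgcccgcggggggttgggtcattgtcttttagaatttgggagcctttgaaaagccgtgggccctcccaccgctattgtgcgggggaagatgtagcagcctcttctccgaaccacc
Lin28b: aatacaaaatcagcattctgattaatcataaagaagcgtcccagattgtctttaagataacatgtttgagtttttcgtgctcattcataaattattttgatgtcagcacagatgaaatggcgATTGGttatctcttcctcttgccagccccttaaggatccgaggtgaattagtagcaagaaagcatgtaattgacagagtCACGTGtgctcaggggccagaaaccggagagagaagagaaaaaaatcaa

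The Lin28a window was 61.2% G and C, against 39.2% in Lin28b, with a median of 52.4% over 32851 promoters. In the Lin28b window there was 1 E-box, a motif found in 6.02% of promoters, and 1 inverted CCAAT box (33.85%), and the Lin28a window held none of the 5 motifs. Of the 8 genes with a promoter in the table, Hmga1 held the octamer, which 1.6% of promoters do, and Igf2bp3 also held an E-box and a CCAAT box. The GC box was found in Hmga1, Hmga2, Igf2bp2 and Trim71 (32.74% of promoters) and the TATA box in none (12.37%).

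Trim71, which is repressed by let-7 as cells differentiate, had the mean ratio nearest to 0 of the 9 genes. Its brighter probe (chromosome 9, 114420415 to 114420474, minus strand) had 14.16, 13.62 and 13.45 in Dido3ΔCT samples, against 13.67, 13.68 and 12.94 in wild type samples. The ranges overlapped, and Trim71 was the one gene of the 9 whose brightest probe changed sign between arrays, with ratios of 0.49, −0.055 and 0.51. Its mean was 0.31 ± 0.26 (adjusted p = 0.516, limma). The second Trim71 probe, 1254 bases upstream, was too dim to test and gave 0.064, −0.42 and 0.28.

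L1td1 had the highest mean ratio of the 9 genes. At its single probe (chromosome 4, 98405084 to 98405143, plus strand) the level was 15.22, 14.05 and 15.03 in Dido3ΔCT samples, against 12.34, 12.57 and 12.50 in wild type samples. Every mutant sample lay above every wild type sample, with replicate 2 the lowest mutant one. Over all genes 10.9% had mutant levels entirely above wild type levels and 10.4% entirely below. The ratios were 2.88, 1.48 and 2.52, with a mean of 2.29 ± 0.35 (adjusted p = 0.0598, limma), which is 4.90-fold and missed the threshold. Within arrays the ratio of L1td1 exceeded that of Lin28a, with a Lin28a minus L1td1 difference of −2.36, −1.41 and −1.33 on the 3 arrays.

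**Figure D2:**
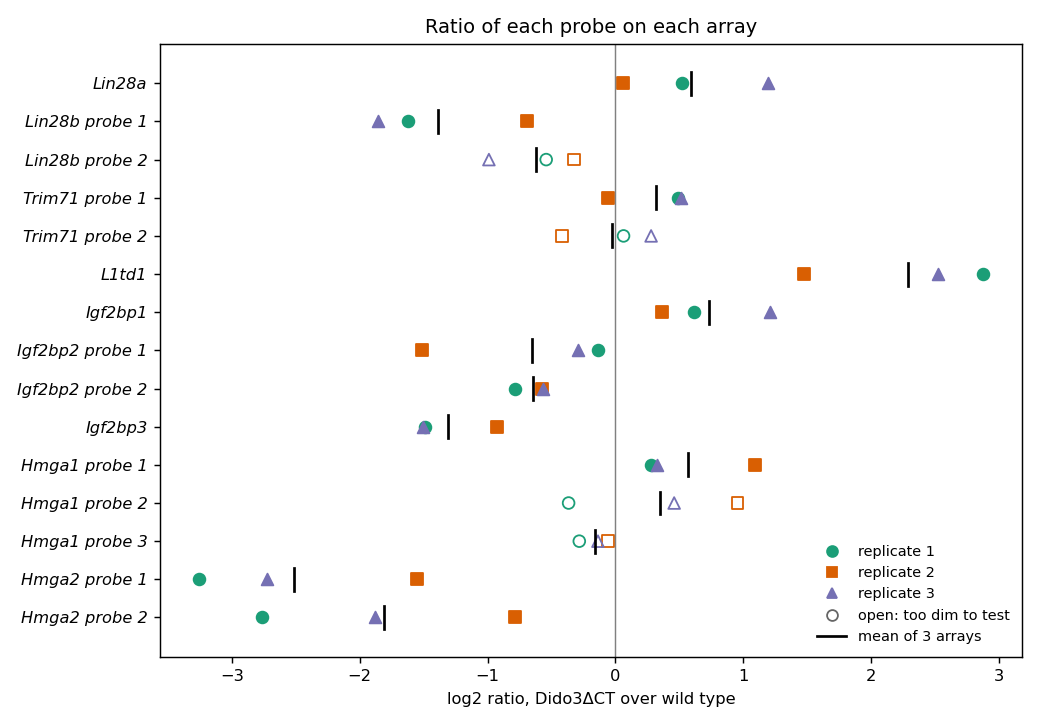
Log2 ratio of Dido3ΔCT over wild type for each of the 15 probes on replicates 1, 2 and 3 (circles, squares, triangles), with bars at the mean and open symbols for probes too dim to test. Replicate 2 is the array nearest to 0 for the brightest probe of Lin28a, Lin28b, Trim71, L1td1, Igf2bp1, Igf2bp3 and Hmga2, but has the largest ratio for Igf2bp2 probe 1 and Hmga1 probe 1.

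The Igf2bp family was also split. Igf2bp1, which stabilises messenger RNAs in fetal and stem cells, had 11.57, 11.99 and 11.86 in Dido3ΔCT samples, against 10.96, 11.63 and 10.65 in wild type samples (chromosome 11, 95824526 to 95824585, minus strand). Its ratios of 0.61, 0.36 and 1.21 were all above 0, with a mean of 0.73 ± 0.28 (adjusted p = 0.212, limma). The groups overlapped slightly, since the wild type sample of replicate 2 exceeded the mutant sample of replicate 1.

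Igf2bp2, the paralogue that is also kept in some adult tissues, had 12.34, 12.05 and 11.83 in Dido3ΔCT samples, against 12.48, 13.56 and 12.12 in wild type samples (chromosome 16, 22059260 to 22059319, minus strand). The ratios were −0.14, −1.51 and −0.30, so the mean of −0.65 ± 0.36 (adjusted p = 0.350, limma) rested largely on replicate 2, and without replicate 2 the mean was −0.22. A second tested probe, 322 bases away, did not show this array apart from the others. It gave −0.79, −0.58 and −0.56, with a mean of −0.64 ± 0.12 (SD, n = 3) and an adjusted p of 0.207 over all probes (limma).

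Igf2bp3, the most strictly oncofetal of the family, had 9.47, 8.76 and 9.64 in Dido3ΔCT samples, against 10.95, 9.69 and 11.15 in wild type samples (chromosome 6, 49035710 to 49035769, minus strand). The ranges did not overlap, although the highest mutant value, of replicate 3, came close to the lowest wild type one, of replicate 2. The ratios of −1.49, −0.93 and −1.51 gave a mean of −1.31 ± 0.26 (adjusted p = 0.0758, limma), a mean 2.48-fold higher in wild type samples. Within arrays the Igf2bp1 ratio exceeded that of Igf2bp3 by 2.10, 1.29 and 2.72, a difference that was not tested.

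The Hmga pair showed the widest gap between paralogues. Hmga1, the form found in most dividing embryonic cells, had 15.33, 15.51 and 15.16 in Dido3ΔCT samples, against 15.06, 14.42 and 14.84 in wild type samples at its brightest probe, annotated to transcript variant 1 (chromosome 17, 27700543 to 27700602, plus strand). The ranges did not overlap, but the ratios were small, at 0.28, 1.09 and 0.33, with a mean of 0.56 ± 0.28 (adjusted p = 0.310, limma) that was 0.30 without replicate 2. A probe annotated to variant 14 gave −0.37, 0.96 and 0.46 and was above background on 2 of 3 arrays in either genotype. A probe for variant 6 stayed at background level throughout. Of the Hmga1 probes the brightest alone could be tested.

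Hmga2, which drives growth of mesenchyme and other fetal tissue, had the lowest mean ratio of the 9. At the probe with the let-7 seed match printed above, the level was 11.27, 12.61 and 12.02 in Dido3ΔCT samples, against 14.53, 14.16 and 14.75 in wild type samples. Each wild type sample was above each mutant one. The ratios were −3.25, −1.55 and −2.73, with a mean of −2.51 ± 0.39 (adjusted p = 0.0602, limma), so that the mean was 5.70-fold higher in wild type samples. The dimmer Hmga2 probe, 1882 bases upstream (119800621 to 119800680), had the same sign on each array. Its levels were 7.08, 7.52 and 6.86 in Dido3ΔCT samples, against 9.84, 8.31 and 8.74 in wild type samples, again without overlap, and its ratios were −2.76, −0.79 and −1.88 (adjusted p = 0.105 over all probes, limma). It was above background on 2 of 3 mutant arrays. A probe of the pseudogene Hmga2-ps1 on chromosome 1 gave 0.14, −0.0065 and 0.60. The Hmga1 ratio exceeded that of Hmga2 by 3.53, 2.64 and 3.06 on the 3 arrays, 3.08 ± 0.44 (SD, n = 3).

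**Figure D3:**
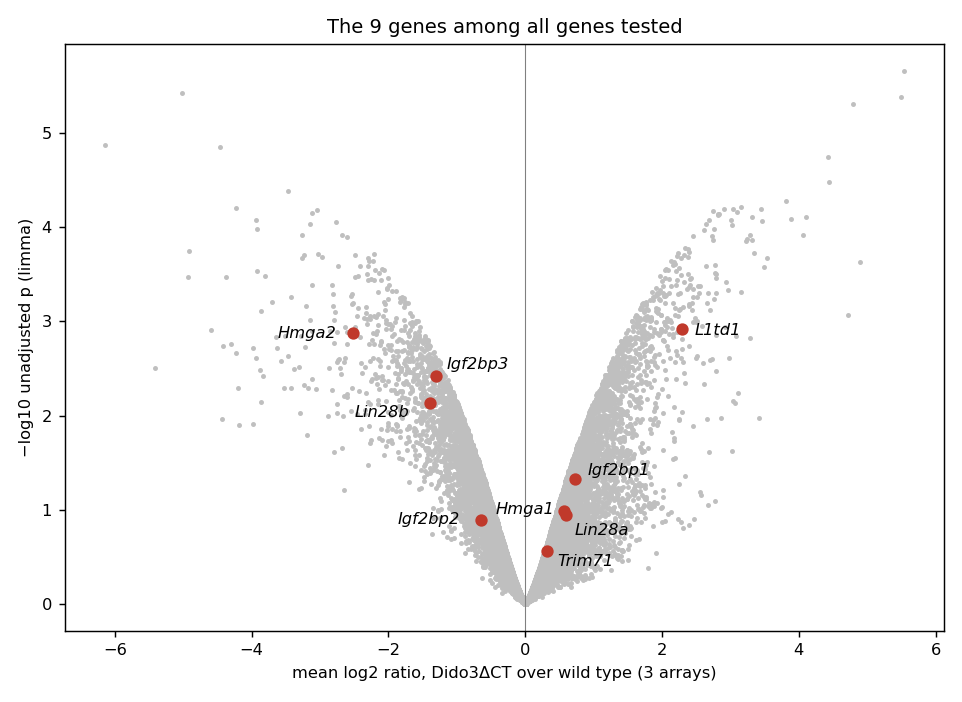
Mean log2 ratio of Dido3ΔCT over wild type against −log10 of the unadjusted limma p, with the 9 genes in red among all genes tested in grey. L1td1 stands on the right at 2.29 and Hmga2 on the left at −2.51, and Trim71 lies near the foot of the plot at 0.31.

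In each pair or family, then, mean ratios of both signs occurred, and in 4 of the 9 genes the sample levels of the genotypes did not overlap (L1td1, Hmga1, Igf2bp3 and Hmga2), against 21.3% of all genes. Of the arrays, replicates 1 and 3 had ratios correlated at 0.878 over genes and replicate 2 was correlated with them at 0.151 and 0.181. These are descriptions across genes, which are not independent replicates. Without replicate 2 limma called Lin28a (0.86), L1td1 (2.70) and Igf2bp1 (0.91) higher and Lin28b (−1.74), Igf2bp3 (−1.50) and Hmga2 (−2.99) lower, with adjusted p from 0.000773 to 0.0273. In that fit the 2 remaining arrays share a dye orientation, so genotype and dye cannot be told apart, and 4009 genes were called higher and 3374 lower (26.0% and 21.9%). A dye term, whose error also comes from replicates 1 and 3 alone, called L1td1 and Hmga1 higher and Lin28b, Igf2bp2, Igf2bp3 and Hmga2 lower, with 2518 and 2364 genes called in all (16.3% and 15.3%). When each channel counted as a separate, unpaired sample, L1td1 and Hmga2 were called, both at an adjusted p of 0.0356 (limma). That fit drops the pairing by array and called 1.12% of all genes higher and 0.59% lower.

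By the smallest distance over the 3 array ratios, the genes most like Lin28a were Desi1 (0.073 log2 units away), Arap3 (0.085) and Ipo7 (0.12). Those most like Lin28b were Rcn1 (0.069), Irx3 (0.090) and Commd3 (0.15). The distances describe the pattern over 3 arrays alone.

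**Figure D4:**
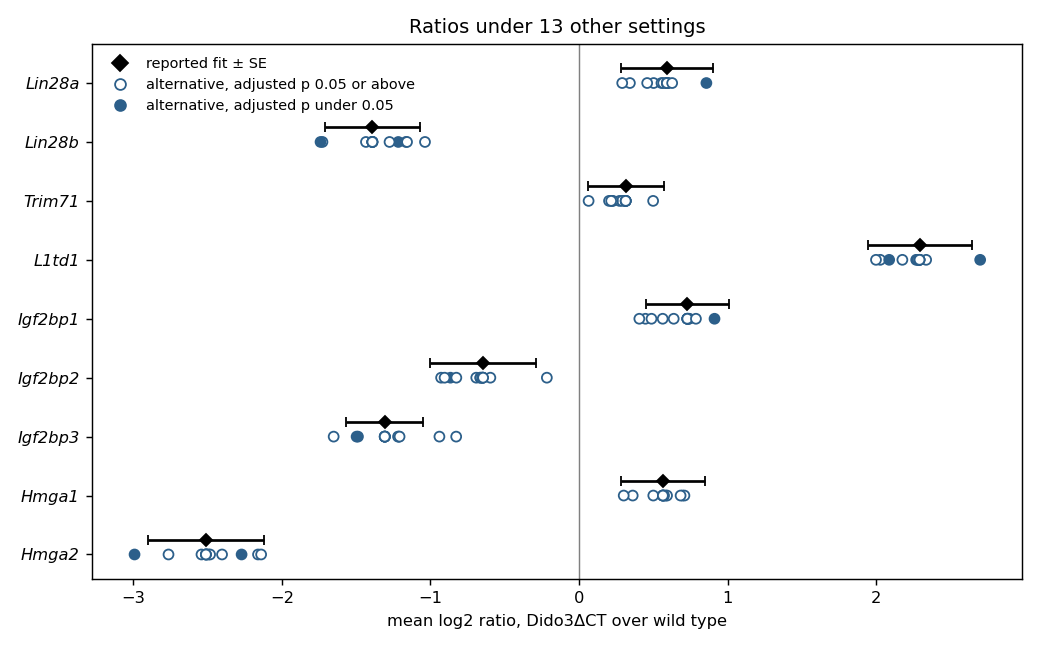
Log2 ratio of each of the 9 genes in the reported fit (diamonds, ± SE over 3 arrays) and under 13 other settings (circles, filled where the adjusted p was under 0.05). No gene crosses 0 under any of the 13, and Trim71 comes closest at 0.065.

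Known let-7 targets outside the group were taken from a list of 20, of which 18 were tested. None passed over all genes, and the median ratio was −0.33, against 0.035 for all genes tested, with 13 of the 18 below 0. Of all 15428 genes 7343 had a mean ratio below 0. Ccnd2, a D-type cyclin, had −4.43, −1.49 and −4.24 and a mean of −3.39 ± 0.64 (adjusted p = 0.0726, limma). Irs2, an adaptor of the insulin receptor, had −1.20 ± 0.31 and Igf1r, the IGF1 receptor, −1.21 ± 0.38, whereas Mycn, a Myc family transcription factor, had 0.73 ± 0.24 (adjusted p from 0.117 to 0.166, limma). Without replicate 2, 2 of the 18 were called higher and 7 lower, where 26.0% and 21.9% of all genes were. With a dye term the counts were 1 and 6, where 16.3% and 15.3% of all genes were called, and with the channels unpaired Ccnd2 alone was called, as lower. So the known targets held values on both sides of 0, but 13 of the 18 lay below it, against 4 of the 9 members. The median of the list lay between −0.64 and −0.28 over the 13 alternatives.

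Genes that make or use microRNAs were likewise without a call. Of 16 on the list 14 were tested, and their median ratio was −0.33. Prkra, a partner of Dicer, had −1.10 ± 0.34, Ago4, an Argonaute protein, −1.15 ± 0.36 and Tnrc6a, a silencing cofactor, −0.84 ± 0.32, while Xpo5, which exports microRNA precursors, had 0.61 ± 0.25 (adjusted p from 0.156 to 0.233, limma). The enzymes through which Lin28a marks and clears let-7 precursors were also tested. Tut4, a uridylyl transferase, had −0.73 ± 0.34, Tut7 −0.41 ± 0.35 and Dis3l2, the exonuclease, −0.54 ± 0.25, and none passed. These 3 were chosen for their role with Lin28 after values were seen. The median of the list lay between −0.64 and −0.10 over the 13 alternatives, at −0.19 without replicate 1, −0.60 without replicate 2 and −0.10 without replicate 3. Without replicate 2, 2 of the 14 were called higher and 7 lower, where 26% and 21.9% of all genes were. With a dye term the counts were 1 and 5, where 16.3% and 15.3% of all genes were called.

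Of 5 mRNAs reported as repressed by Trim71, none passed, and the median was −0.87. The early response factor Egr1 had −1.02 ± 0.28, the splicing regulator Mbnl1 −0.87 ± 0.27, the pocket protein gene Rbl1 −0.88 ± 0.36 and the cell cycle inhibitor Cdkn1a −0.44 ± 0.31 (adjusted p from 0.123 to 0.460, limma). The fifth, the pocket protein gene Rbl2, had 0.015 ± 0.24. The median lay between −1.22 and −0.58 over the alternatives, and 3 of the 5 were called lower with the dye term (Egr1, Mbnl1 and Rbl1) and 3 without replicate 2 (Egr1, Mbnl1 and Cdkn1a). In those 2 fits 15.3% and 21.9% of all genes were called lower.

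Of 7 RNAs bound by Igf2bp proteins none passed, and the largest values were of opposite sign. Igf2, the imprinted growth factor, had −4.07, −2.80 and −2.91 and a mean of −3.26 ± 0.34 (adjusted p = 0.0507, limma), 9.58-fold higher in wild type samples. H19, the imprinted noncoding RNA beside it, had 1.34, 3.29 and 2.29 and a mean of 2.31 ± 0.42 (adjusted p = 0.0704, limma), 4.95-fold higher in Dido3ΔCT samples. Igf2 was below 0 and H19 above 0 on each of the 3 arrays. Btrc, a ubiquitin ligase subunit, had 0.71 ± 0.28 and was above background on 2 of 3 wild type arrays, and Actb, the cytoskeletal actin, had −0.74 ± 0.31. The median of the 7 was 0.17, and it was −0.19 without replicate 2 and −0.15 with median centring. Igf2 was called lower with Agilent's processed signals, scaling between arrays, unpaired channels and the mean over probes. These fits called 0.862%, 0.272%, 0.59% and 0.24% of all genes lower. With the dye term Btrc and H19 were called higher and Actb and Igf2 lower, and without replicate 2 H19 and Myc higher and Actb and Igf2 lower. Of all genes the dye term called 16.3% higher and 15.3% lower, and the fit without replicate 2 called 26% and 21.9%.

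Other HMG proteins, which share the HMG name with the Hmga pair, had a median of −0.71 over 7 genes, with none past the test. Hmgb3 had −1.52 ± 0.26 (adjusted p = 0.0631, limma), Hmgn2 −1.11 ± 0.26, Hmgn5 −0.71 ± 0.24 and Hmgn3 −1.23 ± 0.47. Their other probes differ from these, since with the mean over probes the median was −0.040. Hmgb3, Hmgn2, Hmgn3 and Hmgn5 were called lower with the dye term and without replicate 2, where 15.3% and 21.9% of all genes were. Among 30 tested of 33 other developmental RNA-binding genes the median was −0.070, and none passed. This median changed sign over the alternatives, which ran from −0.31 with median centring to 0.042 without replicate 3, with 0.018 for the dye term and 0.0027 without replicate 1. With the dye term 4 were called higher and 6 lower, where 16.3% and 15.3% of all genes were. Without replicate 2 the counts were 5 and 7, where 26% and 21.9% of all genes were called. Rbm24, which regulates splicing in muscle, had −1.39 ± 0.26 and was above background on 2 of 3 mutant arrays, and Khdrbs1, a splicing factor, had −1.19 ± 0.26. Rbpms2 had 1.92 ± 0.51 and Rbm47 1.08 ± 0.30 (adjusted p from 0.0719 to 0.129 for the 4, limma).

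**Figure D5:**
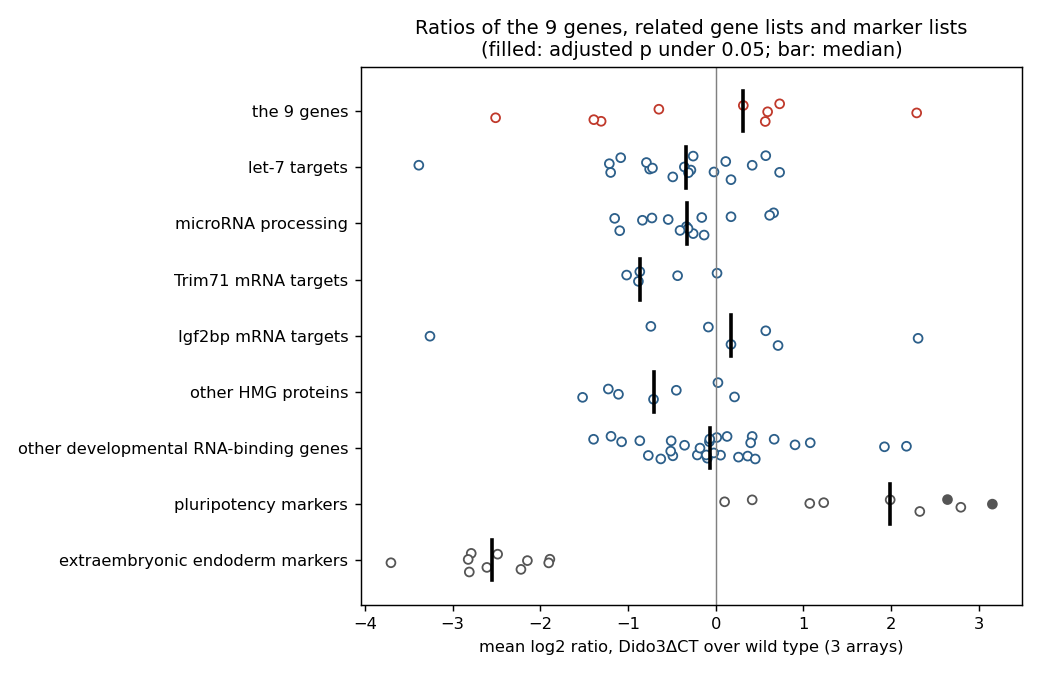
Mean log2 ratio of Dido3ΔCT over wild type for each tested gene of the group, of related lists and of 2 marker lists, with bars at the medians and filled points for an adjusted p under 0.05. The 9 genes spread from −2.51 to 2.29. The 5 above 0 lie within the range of the pluripotency markers (0.10 to 3.16). Of the 4 below 0 only Hmga2 lies within the range of the extraembryonic endoderm markers (−3.71 to −1.89). Lin28b (−1.39), Igf2bp3 (−1.31) and Igf2bp2 (−0.65) lie above that range.

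Marker genes of the cell types that embryoid bodies can hold were measured beside the group. Of 9 pluripotency markers 2 rose, Zfp42 by 3.16 ± 0.26 and Dppa5a by 2.64 ± 0.24 (adjusted p = 0.0440 for both, limma), none fell, and the median was 1.99. These calls were lost without replicate 1 or replicate 3 (0 of 9 each), while 7 of 9 were called without replicate 2. In that last fit 26% of all genes were called higher. Esrrb, an orphan nuclear receptor, had 2.80 ± 0.33 (adjusted p = 0.0518). Their summed intensity was 166494 to 376043 units in Dido3ΔCT samples, against 33569 to 67649 in wild type samples. Dppa5a alone made up 52.9% to 57.9% of that sum in Dido3ΔCT samples and 39.8% to 57.2% in wild type samples, so the sum is no even measure of the list. The range of this list, 0.10 to 3.16, held the ratios of all 5 members above 0. These were L1td1 (2.29), Igf2bp1 (0.73), Lin28a (0.59), Hmga1 (0.56) and Trim71 (0.31). The low end of the range was Nanog, with ratios of 0.30, −0.35 and 0.35. Its mean levels, 7.12 in Dido3ΔCT and 7.02 in wild type samples, lay close to the lowest levels passing the background flag. Those reached 6.95 in a mutant and 7.07 in a wild type channel. The next marker stood at 0.42, above Trim71, so Trim71 lay in the range through Nanog alone. L1td1 was the only member above the median of the list. Of 10 extraembryonic endoderm markers none passed, all had ratios below 0, and the median was −2.55. At an adjusted p under 0.1 (limma) 9 of 10 were lower, against 3.86% of all genes. All 10 were called lower with the dye term and without replicate 2, where 15.3% and 21.9% of all genes were. Agilent's processed signals called 4 lower, scaling 3, unpaired channels 3 and the mean over probes 2. These fits called 0.862%, 0.272%, 0.59% and 0.24% of all genes lower. The other alternatives called none of the 10. The transcription factor gene Sox7 had −2.49 ± 0.26, Afp, of alpha-fetoprotein, −2.22 ± 0.24 and the receptor gene Pdgfra −2.82 ± 0.34 (adjusted p from 0.0507 to 0.0539, limma), with a summed intensity of 13059 to 103738 in Dido3ΔCT samples, against 164895 to 458469 in wild type samples. Of 5 tested neural markers none passed and all were below 0, with Sox1 at −3.97 ± 0.67, Pax3 at −2.01 ± 0.38 and Zic1 at −5.42 ± 1.02, of which Pax3 and Zic1 were above background on 2 of 3 mutant arrays. The neural sum was 1034 to 1329 in Dido3ΔCT samples, against 2625 to 52669 in wild type samples. Pax6 was too dim to test. Neural markers called lower numbered 4 with the dye term and 5 without replicate 2, where 15.3% and 21.9% of all genes were. Agilent's processed signals and unpaired channels called 1 each (0.862% and 0.59% of all genes), and the other alternatives called none. The part of cell composition in the ratios of the 9 genes was not tested. In RNA of whole embryoid bodies fewer cells of a type and less RNA per cell cannot be told apart.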

How the data were processed

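The 3 deposited files of spots come from Agilent's Feature Extraction software, version 10.7.3.1. Their columns, per the file headers, are raw mean and background median intensity in each dye, a processed intensity that Agilent had corrected for background, trend and dye, and quality flags. Probe positions are on mm9. The authors' deposited value table holds log2 ratios per spot (limma, per the submitters' processing notes). Set against the scanner values these are mutant over wild type. Its columns for replicates 1 and 3 correlate best with each other's scanner file, and which is mislabelled, if either, was not established. Its centring is not stated (column medians −0.04, 0.01 and −0.01).

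In limma 3.58.1 (R 4.3.3), intensities were corrected with normexp (offset 50) and ratios normalized by loess. Spots with a flagged local background above 10 times the array median (7 spots) took the median background in the fit and were then left out, as were outlier spots. This rule was adopted with the results of earlier work on these data known. Sample levels are the channels after Aquantile scaling. Probes with a value on 3 arrays and well above background on all 3 in at least 1 genotype were tested (19142 probes, 15428 genes, brightest probe per gene, symbols through RefSeq for 67.9% of probes). Ratios were tested against 0, two-sided, with lmFit, eBayes and Benjamini-Hochberg adjustment (2 residual and 3.03 prior degrees of freedom). The share of spots passing Agilent's background flag ran from 46.5% to 62.5% in mutant channels and from 48.5% to 74.4% in wild type channels, and the 3 arrays limit the precision. Dido1 had ratios of 1.58, 2.17 and 1.46 at its brightest probe. The labels give no limits of the deleted part, so this does not check the genotypes. The Y chromosome genes Eif2s3y and Ddx3y were lower in the Dido3ΔCT sample on each array. Ratios were −5.36, −6.95 and −6.13 for Eif2s3y and −4.78, −4.60 and −4.02 for Ddx3y (adjusted p = 0.0363 for both, limma). Eif2s3y was above background on 1 of 3 mutant arrays and Ddx3y on 0 of 3, and both were on 3 of 3 wild type arrays. The cause of this difference was not tested. The ratio pairs samples by array. Deviations of the 2 channels of an array correlated at 0.518, 0.0198 and 0.466 over genes. The fit was run on simulated ratios with independent noise of the same SD for all genes and arrays, set below the median observed SD. Unequal correlation between arrays was not simulated, so that run does not check the p-values given here. Members, lists and tests were chosen with earlier results of these data known. Genes named are all members and, of each list, those past the threshold or the 4 of smallest p (3 for marker lists). Eif2s3y, Ddx3y and Nanog were named after values were seen. Alternatives changed the background model, normalization, dye term, pairing, filter, probe rule and replicates.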

Additional observations from a re-analysis of the deposited data

How the results depend on the processing

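None of the 9 genes changed direction under the 13 alternatives. No member was called with every spot in the background model, with median centring, scaling between arrays, the authors' deposited values, no filter on dim probes (2 genes called higher and 1 lower in all), probes above background in both genotypes (3 and 1) or the mean over probes (65 and 37), and none without replicate 1 or replicate 3. With every spot in the background model limma called 0 genes either way (1647 at an unadjusted p under 0.05), as in the authors' deposited values (0, with 3055 at an unadjusted p under 0.05), against 33 higher and 14 lower in the reported fit. Median centring called 4 and 3 genes and moved the median of all genes to −0.22, and Trim71 to 0.065, which is above that median. Scaling between arrays called 59 and 42. Genes higher in Dido3ΔCT samples made up 70.2% of the calls, against 57.1% with median centring and 58.4% with scaling. Agilent's processed signals called 235 and 133 genes, with 1 member higher, L1td1 (2.27, adjusted p = 0.0488), and 0 lower. The dye term called 2518 and 2364 genes, with 2 members higher and 4 lower. The fit with no replicate block called 173 and 91, with 1 member higher and 1 lower, and at the 7 other genes of the group it changed no call. Counts without 1 replicate ran from 0 to 4009 higher and from 0 to 3374 lower, with 0 to 3 members in either direction. The cause of these shifts in counts was not tested. Intensities of the untested probes lie near background, which limits what they show. Medians of the gene lists and calls among the marker lists were recomputed under the same alternatives, a choice made after seeing the data. The 2 pluripotency calls were also lost with every spot in the background model, median centring, the authors' deposited values and both changes of the filter, and numbered 2 to 7 in the other settings that kept all 3 arrays. Those other settings called from 0.382% of all genes higher (scaling between arrays) to 16.3% (dye term).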

Other observations

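The remaining marker lists did not share a direction. Of 6 mesenchyme or fibroblast markers none passed, with a median of −0.96. Postn, a matrix protein, had −2.05 ± 0.28, Thy1, a surface glycoprotein, 1.98 ± 0.30 and Col1a2, a chain of type I collagen, −1.71 ± 0.49 (adjusted p from 0.0560 to 0.135, limma). Of 4 tested trophoblast markers none passed, with Cdx2, a caudal homeobox factor, at −1.67 ± 0.28 and above background on 2 of 3 mutant arrays, Tfap2c, an AP-2 transcription factor, at 1.30 ± 0.26 and Hand1, also a mesoderm factor, at −0.61 ± 0.26. Of 5 cardiac markers none passed. Myl7, an atrial myosin light chain, had −1.65 ± 0.25, Myh6, the alpha heavy chain, 1.79 ± 0.33 and Nkx2-5, a homeobox factor of the heart, −0.43 ± 0.24 and was above background on 1 of 3 mutant arrays.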
